A study of Mus musculus with 36 samples.

Results

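Scavenger receptors were read here as 8 named genes, Msr1, Marco, Cd36, Scarb1, Olr1, Mrc1, Cd163 and Cd5l, which were taken from the gene count table by symbol, 8 of 54532 genes. All 8 had rows in the table, and all 8 passed the filter on low counts in each of the 11 comparisons. The cells were bone marrow-derived macrophages (BMDMs) of female C57BL/6 mice aged 13 to 17 weeks, cultured for 7 days in macrophage colony-stimulating factor with 20% serum. Every mouse carried Bmal1 flox/flox alleles. The KO mice (LysM-Cre;Bmal1 flox/flox) also carried Cre under the lysozyme M promoter, which is active in myeloid cells, and the WT mice were their littermates without Cre. Cells of each genotype received for 6 h the DMSO vehicle, 100 µM CCM (Core Circadian Modulator, a small molecule that binds the PASB domain of BMAL1), 100 nM lipopolysaccharide (LPS, the endotoxin of Gram-negative bacteria) or LPS together with CCM, which gave 3 WT and 6 KO libraries per treatment and 36 in all. No label says whether a replicate number stands for 1 animal, so the p-values below measure the spread between these samples.

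Scavenger receptors are cell surface and secreted proteins that bind modified lipoproteins, bacteria, apoptotic cells and other polyanionic or damaged material. Macrophages use them to clear debris and microbes and to take up lipid, and uptake of oxidized lipoprotein through them makes foam cells. Msr1 (SR-A1) and Marco are class A receptors with a collagen-like stalk, Cd36 and Scarb1 (SR-B1) are class B receptors for lipids, and Olr1 (LOX-1) is a C-type lectin-like receptor for oxidized low density lipoprotein. Mrc1 (CD206) is the mannose receptor, Cd163 takes up haptoglobin-hemoglobin complexes, and Cd5l (AIM) is a secreted scavenger receptor cysteine-rich protein. BMAL1 is the transcription factor that pairs with CLOCK to drive the positive arm of the circadian clock.

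In the GRCm38/mm10 coordinates of the count table, Msr1 (ENSMUSG00000025044) spans chr8:39581685-39642673, Marco (ENSMUSG00000026390) chr1:120474538-120505024, Cd36 (ENSMUSG00000002944) chr5:17781690-17888801, Scarb1 (ENSMUSG00000037936) chr5:125277087-125341094 and Olr1 (ENSMUSG00000030162) chr6:129485244-129507165, all on the minus strand. On the plus strand lie Mrc1 (ENSMUSG00000026712) at chr2:14229392-14332057, Cd163 (ENSMUSG00000008845) at chr6:124304656-124330527 and Cd5l (ENSMUSG00000015854) at chr3:87357881-87371073. All 8 are annotated as protein-coding. Scarb1 overlaps the unconfirmed gene model Gm42633 and Mrc1 overlaps Mir511, each on its own strand, so reads in those stretches could have been assigned to either gene.

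Promoter windows of 250 bases upstream of the start were found in RefSeq (GRCm38.p6) for 6 of the 8 genes, and not for Msr1 and Scarb1. The windows of Marco and Olr1, the genes with the highest LPS responses, and of Cd36, the member with the highest level per gene length, are shown, each 5′ to 3′ on the minus strand and with motif matches in capitals. The Cd36 window lies upstream of a start within the annotated gene.
Marco (chr1:120505025-120505274): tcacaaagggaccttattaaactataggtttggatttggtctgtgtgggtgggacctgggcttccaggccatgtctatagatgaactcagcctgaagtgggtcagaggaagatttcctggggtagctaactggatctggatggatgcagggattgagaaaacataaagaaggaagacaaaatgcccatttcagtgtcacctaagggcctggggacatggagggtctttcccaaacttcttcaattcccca
Olr1 (chr6:129507166-129507415): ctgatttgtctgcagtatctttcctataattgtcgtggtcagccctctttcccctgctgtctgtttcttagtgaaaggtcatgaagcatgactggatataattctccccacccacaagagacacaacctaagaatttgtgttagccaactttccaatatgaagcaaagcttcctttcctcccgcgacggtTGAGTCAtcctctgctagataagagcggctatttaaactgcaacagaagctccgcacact
Cd36 (chr5:17835897-17836146): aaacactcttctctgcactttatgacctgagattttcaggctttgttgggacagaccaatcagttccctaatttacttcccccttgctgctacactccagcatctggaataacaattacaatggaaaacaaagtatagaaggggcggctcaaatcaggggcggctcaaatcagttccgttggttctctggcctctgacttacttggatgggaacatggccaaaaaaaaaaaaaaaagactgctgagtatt
Motifs were searched on both strands, namely the E-box CACGTG bound by BMAL1 and CLOCK, the NF-kB consensus, the AP-1 site TGANTCA, the PU.1 core GAGGAAGT, an interferon response element of paired GAAA repeats and the DR1 nuclear receptor element of direct repeats. The sole match among the 6 genes was TGAGTCA in the Olr1 window, with its first base 60 bases before the start. Of all 32851 windows of this length, 6.75% held TGANTCA, 6.02% the E-box, 3.9% the NF-kB consensus, 2.44% the PU.1 core, 2.98% the interferon response element and 0.0335% the DR1 element. A match describes letters alone, and a window without a match says nothing about binding of a factor elsewhere.

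The libraries held 13469262 to 28288923 counts in genes, with a median of 19951421. KO replicate 6 stood apart from the other KO replicates in all 4 treatments. It was the lowest of the 6 KO replicates in all 4 treatments for 25.8% of 15720 genes and the highest for 20.1%, against 0.0954% to 1.25% lowest for any other replicate number. The summed level of 7 neutrophil marker genes was 943 to 969 CPM (counts scaled to library size) in KO replicate 6 and 327 to 894 CPM in KO replicates 1 to 5, while 8 macrophage markers summed to 12520 to 14180 CPM and 11620 to 20350 CPM, and no gene of either list was at 0. Other lists differed in median with overlapping ranges. In KO replicate 6, T cell markers (3.55 to 8.58 against 0.66 to 4.09 CPM) and erythroid markers (4.78 to 11.1 against 1.47 to 7.32 CPM) were higher. Fibroblast markers had a lower median (482 against 866 CPM). Bmal1 itself (Arntl) was lower in KO than in WT BMDMs without passing the test, with a log2 fold change of -0.34 (SE 0.26, edgeR adjusted p = 1) with vehicle and -0.45 (SE 0.34, edgeR adjusted p = 0.986) with LPS. KO replicate 6 had the lowest Arntl level, 2.87 CPM with vehicle and 2.02 CPM with LPS, while KO replicates 1 to 5 had 6.40 to 7.98 CPM and 6.40 to 9.03 CPM, overlapping the 7.52 to 9.98 CPM and 8.08 to 10.2 CPM of WT. Without KO replicate 6 the KO mean was 7.47 ± 0.619 CPM with vehicle and 7.57 ± 1.10 CPM with LPS (SD, n = 5), against 8.71 ± 1.23 CPM and 9.19 ± 1.05 CPM in WT (SD, n = 3). In bulk RNA, fewer cells of a type cannot be told apart from less RNA per cell.

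Transcript levels of the 8 receptors spread over a wide range before stimulation. On the TPM scale, which divides counts by gene length and scales each library to the same sum, Cd36 had the highest level in WT BMDMs with vehicle, at 1704 ± 208 TPM (SD, n = 3). Msr1 followed at 199.5 ± 16.1 TPM, Cd5l at 127 ± 23.6 TPM and Mrc1 at 109 ± 25.5 TPM, and Cd5l and Mrc1 differed by less than their spread. Scarb1 stood at 62.2 ± 2.34 TPM. Cd163 (2.95 ± 1.64 TPM), Marco (2.64 ± 0.857 TPM) and Olr1 (0.667 ± 0.123 TPM) were close to the floor. After LPS the order changed, and Cd36 (837 ± 50.3 TPM), Marco (770 ± 233 TPM) and Msr1 (541 ± 42.6 TPM) led, with Cd36 and Marco within their spread of each other. Cd5l (52.5 ± 10.4 TPM) and Mrc1 (45.4 ± 4.63 TPM) again lay within their spread, above Scarb1 (23 ± 1.64 TPM), Olr1 (18 ± 2.24 TPM) and Cd163 (0.564 ± 0.0813 TPM). Within each gene, the values below are in CPM, normalized by trimmed mean of M-values (TMM).

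**Figure D1:**
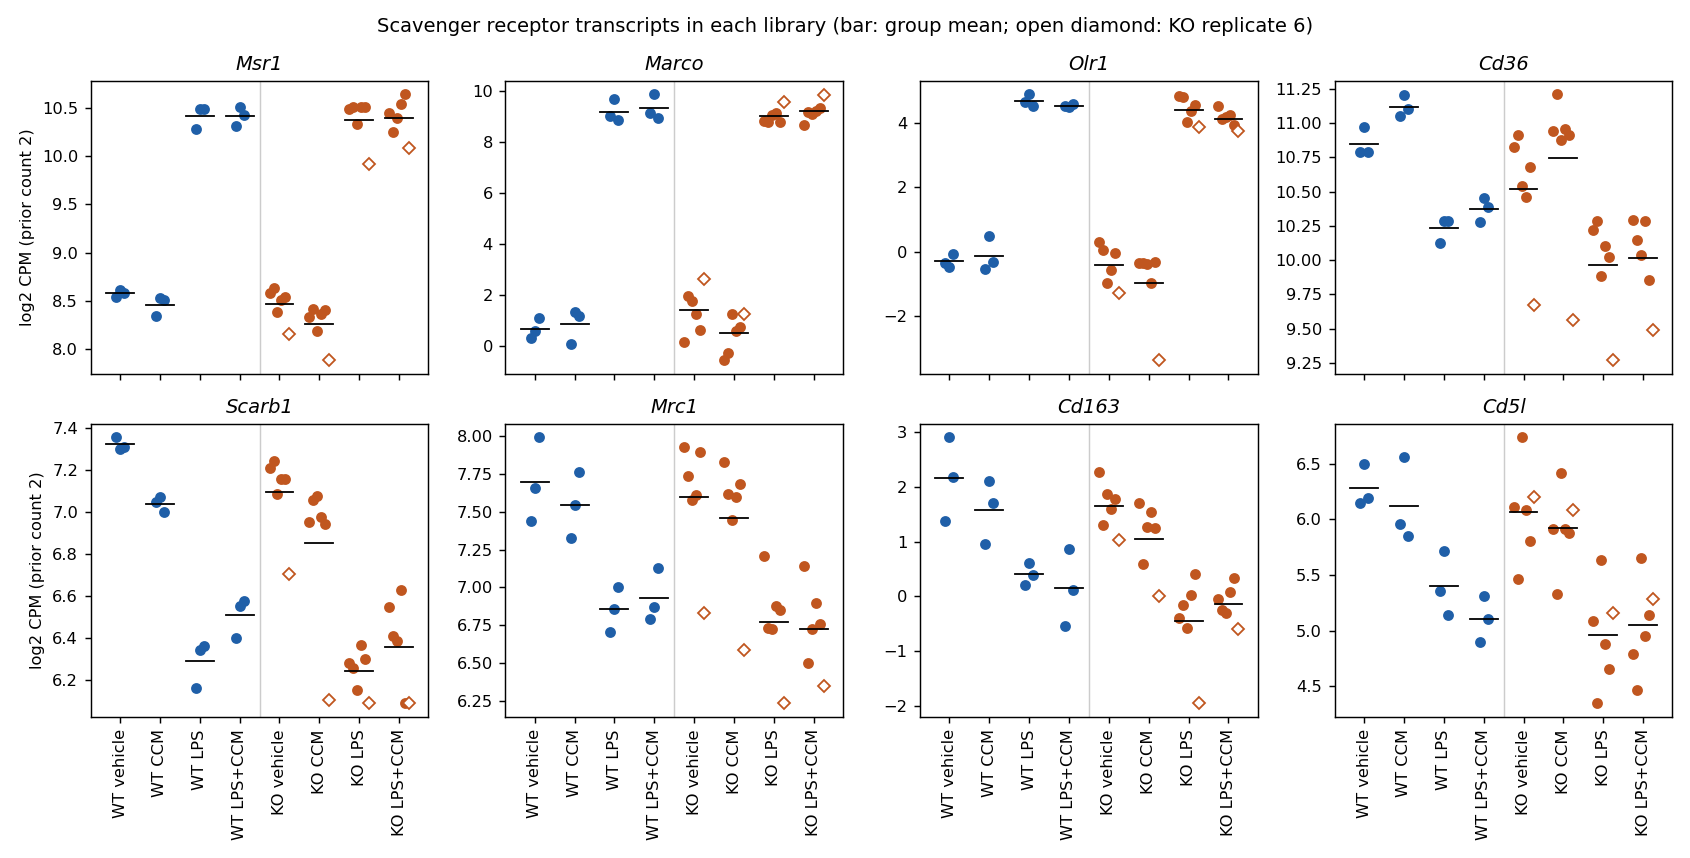
Level of each scavenger receptor transcript in the 36 libraries, as log2 CPM with a prior count of 2, by genotype and treatment (WT blue, n = 3 per group; KO orange, n = 6 per group); the bar is the group mean and the open diamond is KO replicate 6. Each panel has its own vertical range: Msr1, Marco and Olr1 are higher in all LPS-treated libraries, and KO replicate 6 is the lowest KO library in all 4 treatments for Msr1, Olr1, Cd36, Scarb1, Mrc1 and Cd163.

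The response of the receptors to LPS was examined first. LPS split the 8 genes into 3 that rose and 5 that fell, in the same directions in WT and KO BMDMs. The class A receptors Msr1 and Marco and the lectin-like Olr1 rose, and the class B receptors Cd36 and Scarb1, the mannose receptor Mrc1 and the cysteine-rich members Cd163 and Cd5l fell. All 8 were called in WT (edgeR quasi-likelihood test, Benjamini-Hochberg adjusted p of 0.05 or less), where 63.0% of 14501 genes were called, and all 8 in KO, where 47.1% of 13648 genes were called. In KO, samples of the same replicate number deviated together, and a fit with the replicate block called 9774 genes and again all 8 members. The part of KO replicate 6 in those deviations was not tested. A fit without KO replicate 6 also called all 8 members. The share called higher was 30.6% of genes in WT and 22.4% in KO, and the share called lower was 32.4% and 24.7%. The median log2 fold change over the 8 members was -0.71 in WT and -0.70 in KO, against -0.05 over all genes in each. With scaling by total counts alone, the median of all genes moved to -0.47 in WT and -0.44 in KO and the share of calls that were lower rose from 51.4% to 76% in WT and from 52.4% to 75.8% in KO. All 8 members kept their directions and calls under that scaling, in both genotypes. Summed levels of other marker lists also moved with LPS. In WT, 4 tissue macrophage markers summed to 76.3 to 103 CPM with vehicle and 226 to 257 CPM with LPS, 6 dendritic cell markers to 4.1 to 6.41 and 10.8 to 13.1 CPM, 4 T cell markers to 0.549 to 1.75 and 3.43 to 4.67 CPM, and 7 neutrophil markers to 499 to 549 and 392 to 433 CPM. In KO, the tissue macrophage markers (30.6 to 82.7 and 152 to 259 CPM) and the dendritic cell markers (4.28 to 6.70 and 9.55 to 15.3 CPM) were again apart, and those of T cells and neutrophils overlapped. With LPS, 1 of the 4 tissue macrophage genes was at 0 in all WT libraries and 1 in all KO libraries. In bulk RNA such sums do not tell more cells from more RNA per cell, and their part in the receptor values was not tested.

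Marco, a receptor for bacteria and inhaled particles, had the highest fold change of the 8. With vehicle, the 3 WT libraries held 1.14, 1.42 and 2.01 CPM, from 30 to 66 counts, and with LPS they held 512, 806 and 466 CPM. In KO BMDMs the lowest, median and highest libraries were 1.01, 2.78 and 6.04 CPM with vehicle and 434, 489 and 755 CPM with LPS. No LPS library overlapped a vehicle library in either genotype, as held for 69.0% of genes in WT and 30.6% in KO. Marco rose by a log2 fold change of 8.60 (SE 0.29, 388-fold, edgeR adjusted p = 2.74e-09) in WT and 7.50 (SE 0.46, 181-fold, edgeR adjusted p = 2.15e-08) in KO. KO replicate 6 was the highest KO library for Marco in 3 of the 4 treatments, and without it the KO value was 7.68.

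Olr1, the receptor for oxidized low density lipoprotein, went from a few counts to a clear signal. The WT vehicle libraries had 0.683, 0.621 and 0.854 CPM, from 14 to 28 counts, and the WT LPS libraries 24.9, 29.5 and 22.9 CPM. In KO the lowest, median and highest values were 0.31, 0.73 and 1.13 CPM with vehicle and 14.4, 21.9 and 28.7 CPM with LPS. The groups were again fully apart in both genotypes. Olr1 rose 35.7-fold in WT (log2 5.16, SE 0.17, edgeR adjusted p = 2.4e-09) and 30-fold in KO (log2 4.91, SE 0.29, edgeR adjusted p = 1.64e-08).

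Msr1, the class A receptor for acetylated low density lipoprotein, started from a much higher level and rose less. Its WT values were 373, 391 and 383 CPM with vehicle and 1244, 1442 and 1442 CPM with LPS. In KO BMDMs the lowest, median and highest libraries were 285, 367 and 397 CPM with vehicle and 970.3, 1447 and 1462 CPM with LPS. Vehicle and LPS libraries did not overlap, and Msr1 rose 3.67-fold in WT (log2 1.88, SE 0.07, edgeR adjusted p = 8.59e-09) and 3.79-fold in KO (log2 1.92, SE 0.11, edgeR adjusted p = 1.24e-08).

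Scarb1, the high density lipoprotein receptor, fell 2-fold in WT BMDMs. The WT libraries had 164, 157 and 159 CPM with vehicle and 71.5, 81 and 82.2 CPM with LPS. In KO the lowest, median and highest values were 104, 143 and 151 CPM with vehicle and 68, 77 and 82.3 CPM with LPS. The groups did not overlap in either genotype, and the log2 fold change was -1.0 (SE 0.06, edgeR adjusted p = 4.17e-07) in WT and -0.86 (SE 0.09, edgeR adjusted p = 3.85e-06) in KO.

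Cd36, the fatty acid and oxidized lipoprotein receptor, had the smallest change of the 8. WT values were 1766, 2006 and 1765 CPM with vehicle and 1115, 1251 and 1247 CPM with LPS, with no overlap. KO values ran from 816 over a median of 1567 to 1931 CPM with vehicle and from 616 over 1069.6 to 1247 CPM with LPS, and these groups overlapped, although LPS was lower in 6 of 6 pairs of the same replicate number. Cd36 fell by a log2 fold change of -0.59 (SE 0.08, edgeR adjusted p = 8.77e-05) in WT and -0.57 (SE 0.20, edgeR adjusted p = 0.0288) in KO. The KO call was lost without KO replicate 1, 2, 3, 4 or 5 (edgeR adjusted p = 0.0541 to 0.0884) and was kept without KO replicate 6 (-0.59, edgeR adjusted p = 1.3e-04), and the WT call was lost in a fit to all 36 libraries (edgeR adjusted p = 0.084).

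Mrc1, the mannose receptor, fell by nearly the same amount in both genotypes. The WT libraries had 173, 201 and 254 CPM with vehicle and 104, 116 and 128 CPM with LPS, and did not overlap. KO libraries ran from 114 over a median of 205 to 243 CPM with vehicle and from 75.1 over 111 to 148 CPM with LPS, where KO replicate 6 with vehicle lay among the LPS values. The log2 fold change was -0.83 (SE 0.14, edgeR adjusted p = 3.98e-04) in WT and -0.84 (SE 0.17, edgeR adjusted p = 0.00132) in KO.

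Cd163, the hemoglobin scavenger, was close to the detection limit throughout. WT libraries held 2.51, 7.41 and 4.46 CPM with vehicle and 1.06, 1.43 and 1.21 CPM with LPS, the latter from 18 to 33 counts. KO libraries ran from 1.94 over a median of 3.15 to 4.74 CPM with vehicle and from 0.162 over 0.734 to 1.23 CPM with LPS, where 1 library had 2 counts. The groups stayed apart in both genotypes, and Cd163 fell by a log2 fold change of -1.91 (SE 0.39, edgeR adjusted p = 0.00156) in WT and -2.10 (SE 0.33, edgeR adjusted p = 1.61e-04) in KO.

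Cd5l, the secreted apoptosis inhibitor of macrophages, fell in both genotypes. Its WT values were 70.5, 90.3 and 73.1 CPM with vehicle and 40.9, 52.4 and 35.3 CPM with LPS, with no overlap. In KO they ran from 44.1 over a median of 68.2 to 107 CPM with vehicle and from 20.3 over 31.7 to 49.4 CPM with LPS, so that these groups overlapped while LPS was lower in 6 of 6 pairs. The log2 fold change was -0.84 (SE 0.14, edgeR adjusted p = 5.93e-04) in WT and -1.10 (SE 0.24, edgeR adjusted p = 0.00211) in KO. KO replicate 6 lay inside the range of the other KO replicates for this gene.

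**Figure D2:**
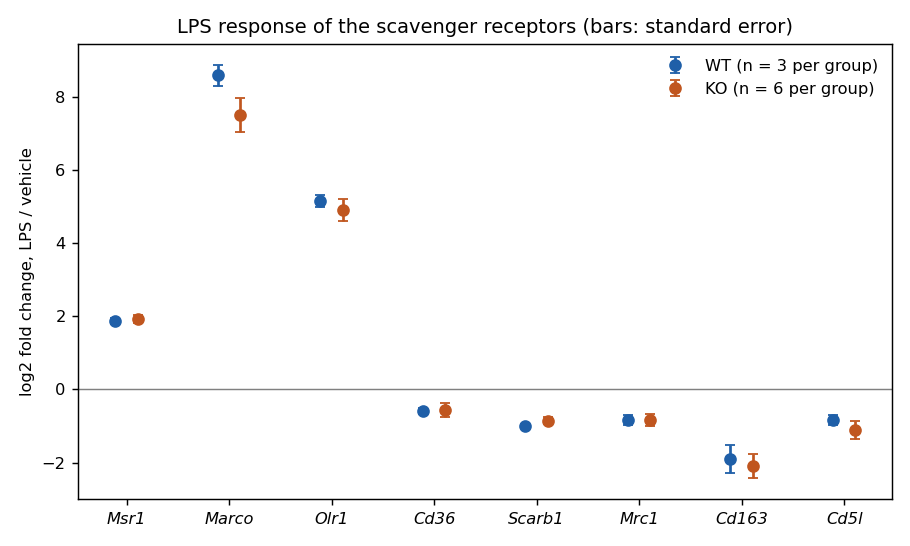
Log2 fold change of each receptor with LPS against vehicle in WT (blue) and KO (orange) BMDMs; bars are the standard error. Msr1, Marco and Olr1 lie above 0 and the other 5 below 0 in both genotypes, with Marco at 8.60 in WT and 7.50 in KO.

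The receptors were then compared between genotypes. No member was called between KO and WT BMDMs, with vehicle or with LPS, and no gene of 14385 (0% called) or 13794 (0% called) was called by edgeR, while 118 and 105 genes had an unadjusted p under 0.05 and DESeq2 called 1 and 2 genes. With vehicle, Scarb1 was the sole member whose groups did not overlap, as was the case for 1.28% of all genes: the 6 KO libraries, at 104 to 151 CPM, lay below the 3 WT libraries, at 157 to 164 CPM. Its log2 difference, KO minus WT, was -0.18 (95% interval -0.42 to 0.07) and was -0.13 without KO replicate 6. The difference for Marco with vehicle was 0.99 (95% interval -0.22 to 2.20) and 0.63 without KO replicate 6, and that for Cd36 was -0.25 (95% interval -0.73 to 0.24) and -0.13 without it. The other members with vehicle had log2 differences of -0.56 (Cd163), -0.12 (Cd5l), -0.06 (Msr1), -0.04 (Mrc1) and 0.03 (Olr1), and the signs for Cd5l, Mrc1 and Olr1 turned under other settings. Leaving out 1 library moved Cd163 between -0.87 and -0.10 and Marco between 0.63 and 1.25.

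With LPS, the log2 difference, KO minus WT, was -0.01 for Msr1 (95% interval -0.31 to 0.29), -0.22 for Cd36 (-0.62 to 0.19), -0.03 for Scarb1 (-0.24 to 0.19) and -0.14 for Marco (-0.66 to 0.38). It was -0.22 for Olr1 (-0.69 to 0.25), -0.04 for Mrc1 (-0.42 to 0.34), -0.72 for Cd163 (-1.63 to 0.19) and -0.38 for Cd5l (-0.95 to 0.19). The intervals leave room for differences in either direction, and the signs of Msr1, Marco, Mrc1 and Scarb1 turned when some replicates were left out. No member's groups were apart with LPS, against 1.20% of all genes.

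Nor did the LPS response itself pass a test of a difference between genotypes for any member, where 0% of 15093 genes were called (112 with an unadjusted p under 0.05). For Marco the KO response was lower by 1.08 on the log2 scale, with a 95% interval of -2.29 to 0.13, and the intervals were -0.28 to 0.42 for Msr1, -0.59 to 0.67 for Cd36 and -1.11 to 0.62 for Olr1. They were -0.12 to 0.46 for Scarb1, -0.59 to 0.60 for Mrc1, -1.29 to 0.99 for Cd163 and -1.03 to 0.55 for Cd5l. These intervals are wide, and in simulated data with this design 6% of genes changed by 1 on the log2 scale were called.

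KO replicate 6 lay below the other KO replicates in 6 members and above their mean in Marco and Cd5l. Cd36 stood at 816 CPM in it with vehicle, which is 49.2% of the mean of KO replicates 1 to 5 (1658 ± 218 CPM, SD, n = 5), and at 37.3% with CCM, 55.8% with LPS and 64% with both. Mrc1 lay between 48.2% and 72.1% of that mean, Scarb1 between 53.6% and 88.1%, Msr1 between 68.2% and 77.2%, and Cd163, at 2 to 25 counts, between 19.3% and 63.1%. Olr1 had 0 counts in KO replicate 6 with CCM, and was at 39.3% to 72.8% in the other treatments. Marco went the other way, at 157% to 256%, and Cd5l stood at 107% to 117%. The part of the higher neutrophil marker level of KO replicate 6, and of its other marker levels, in these values was not tested.

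**Figure D3:**
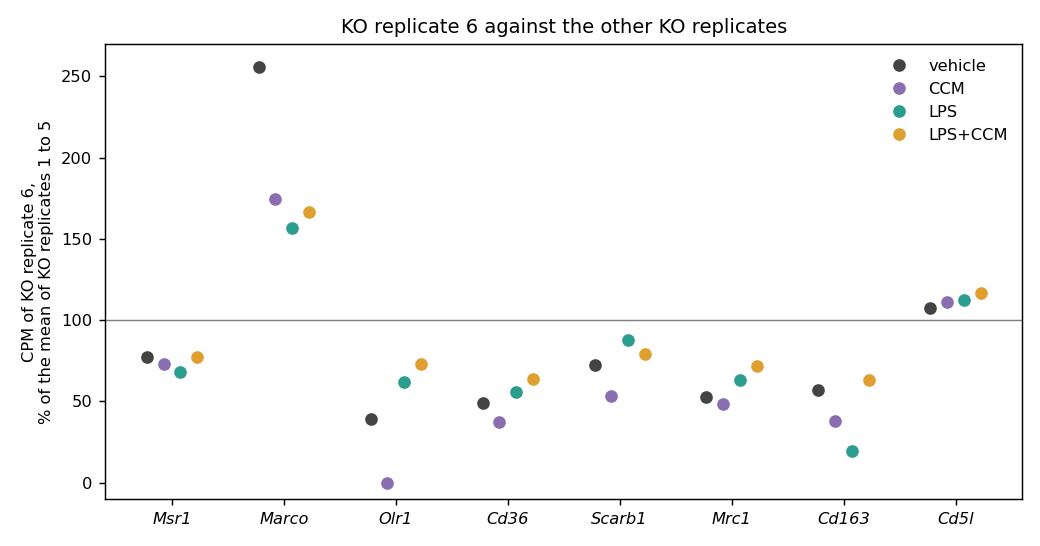
CPM of KO replicate 6 as a percent of the mean of KO replicates 1 to 5, for each receptor and treatment (1 point per treatment; the line marks 100%). Marco lies at 157% to 256% and Cd5l at 107% to 117%, while the other 6 genes lie below 100% in all 4 treatments.

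The effect of CCM on unstimulated cells was examined next. With CCM alone, no member was called in WT BMDMs, where 0.0570% of 14024 genes were called, although 1404 genes had an unadjusted p under 0.05. Scarb1 came nearest. It is in a panel of phagocytosis genes that the study examined for CCM in these samples, so its CCM values are not independent evidence. It had 132, 134 and 128 CPM with CCM against the 157 to 164 CPM of vehicle, so that the groups did not overlap, with a log2 fold change of -0.27 (SE 0.05, edgeR adjusted p = 0.0985). Cd36 was higher with CCM in every WT library, at 2123, 2359 and 2197 CPM against 1765 to 2006 CPM, with a log2 fold change of 0.28 (SE 0.07, edgeR adjusted p = 0.231). Msr1 had 323, 370 and 364 CPM, all below the 373 to 391 CPM of vehicle (log2 -0.11, SE 0.07, edgeR adjusted p = 0.631). The groups of these 3 members were apart, as were those of 15.4% of all genes. The other 5 overlapped, with log2 fold changes of -0.63 for Cd163, -0.15 for Mrc1, -0.12 for Cd5l, 0.27 for Marco and 0.26 for Olr1. Leaving out 1 library moved Cd163 between -0.95 and -0.17 and Marco between 0.04 and 0.58, and turned the sign of Mrc1, Cd5l and Olr1. DESeq2 called Scarb1 (-0.27, adjusted p = 6.11e-04) and Cd36 (0.28, adjusted p = 0.0049), as it did 241 genes in all. Of the marker lists, dendritic cell sums alone were apart, at 2.48 to 3.775 CPM with CCM against 4.1 to 6.41 CPM with vehicle. Their part in the receptor values was not tested.

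In KO BMDMs, edgeR called 0 members and 0 of 13799 genes (0% called) with CCM alone, while 333 genes had an unadjusted p under 0.05 and DESeq2 called 42. The same replicate numbers deviated together in these libraries (correlations of 0.337 to 0.844), as did different numbers to a lesser degree (median 0.221). The deviations were taken from group means that include KO replicate 6, and its part in these correlations was not tested. A fit blocked on the replicate number called 429 genes and included Msr1 (-0.21, edgeR adjusted p = 0.0153) and Scarb1 (-0.24, edgeR adjusted p = 0.0478). Scarb1 had a lowest, median and highest value of 68.6, 125 and 135 CPM with CCM, against 104, 143 and 151 CPM with vehicle, and was lower in 6 of 6 pairs. Msr1 had 235, 325 and 340 CPM with CCM, against 285, 367 and 397 CPM, and was also lower in 6 of 6 pairs. Mrc1 and Cd163 were lower in 6 of 6 pairs as well, without a call under the block (edgeR adjusted p = 0.131 and 0.0864). The share of all genes with the same direction in every pair was not computed, for this or any other comparison. Cd36 was higher in 5 of 6 pairs, the exception being KO replicate 6, with 1815 ± 548 CPM against 1517 ± 395 CPM (SD, n = 6) and a log2 fold change of 0.25 (SE 0.24, edgeR adjusted p = 1). Marco (log2 -1.0, SE 0.47), Olr1 (-0.42, SE 0.48) and Cd5l (-0.17, SE 0.22) were each lower in 5 of 6 pairs. No member's groups were apart, as were those of 0.420% of all genes. Without KO replicate 6 the edgeR fit called 141 genes and no member, with Scarb1 at -0.19 (edgeR adjusted p = 0.0647).

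The effect of CCM on LPS-stimulated cells was then tested. When CCM was added to LPS in WT BMDMs, 0 members were called, where 11.9% of 13579 genes were called. Scarb1 was higher with LPS and CCM, at 84.4, 93.7 and 95.3 CPM against 71.5, 81 and 82.2 CPM with LPS alone, and its log2 fold change was 0.23 (SE 0.07, edgeR adjusted p = 0.0548). Its groups were the sole ones among the members that did not overlap, against 30.1% of all genes with groups apart. Libraries of the same replicate number deviated together here (correlations of 0.151 to 0.36), and different numbers had a median of -0.132. Deviations were taken from the mean of each group of 3, so that median is tied to the same-number values and adds no support. The lowest same-number correlation in WT was 0.047 for LPS against vehicle and 0.051 for CCM against vehicle. No label gives the meaning of a number, so whether it pairs these samples remains uncertain. A fit blocked on that number called 3220 genes, against 1621 without the block, and its calls included 4 members. These were Scarb1 (0.23, edgeR adjusted p = 7.26e-04), Cd36 (0.15, edgeR adjusted p = 7.8e-04) and Marco (0.14, edgeR adjusted p = 0.0037), which were higher in 3 of 3 pairs, and Cd5l (-0.29, edgeR adjusted p = 0.0058), which was lower in 3 of 3 pairs. Marco stood at 562, 926 and 490.1 CPM against 512, 806 and 466 CPM, Cd36 at 1244, 1399 and 1339 CPM against 1115, 1251 and 1247 CPM, and Cd5l at 29.7, 39.5 and 34.4 CPM against 40.9, 52.4 and 35.3 CPM, each in the order of the replicate numbers. Olr1 (-0.15), Cd163 (-0.15), Mrc1 (0.09) and Msr1 (0.0031) were not called with or without the block. With scaling by total counts alone, Scarb1 (0.31, edgeR adjusted p = 0.015) and Cd36 (0.23, edgeR adjusted p = 0.0259) were called without the block. That fit called 2272 genes in all with a median of all genes of 0.09, against 1621 genes and 0.01 with TMM. Marker sums also moved when CCM was added to LPS in WT. Tissue macrophage markers summed to 148 to 178 against 226 to 257 CPM, and dendritic cell markers to 6.965 to 9.59 against 10.8 to 13.1 CPM. Endothelial markers summed to 13.1 to 17.4 against 28.7 to 29.5 CPM. Macrophage markers were higher, at 16780 to 17100 against 16110 to 16680 CPM, and the other lists overlapped. The part of these sums in the receptor values was not tested.

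In KO BMDMs, adding CCM to LPS gave 0 called members, where 0.112% of 13386 genes were called. Scarb1 was higher in 4 of 6 pairs, with a lowest, median and highest value of 68, 84.1 and 98.8 CPM against 68, 77 and 82.3 CPM with LPS alone (log2 0.10, SE 0.11, edgeR adjusted p = 0.862). Marco was higher in 5 of 6 pairs (log2 0.18, SE 0.21, edgeR adjusted p = 0.863), and Olr1 was lower in 5 of 6 pairs (log2 -0.34, SE 0.18, edgeR adjusted p = 0.691). The log2 fold changes of the other members were 0.16 for Cd163, -0.07 for Mrc1, 0.05 for Cd5l, 0.02 for Cd36 and -0.02 for Msr1, all with overlapping groups, and 1.37% of all genes had groups apart. The CCM effect under LPS was not shown to differ between genotypes for any member, since 0% of 14546 genes were called in that test (72 with an unadjusted p under 0.05), and the 95% interval of the difference for Scarb1 was -0.46 to 0.24. It was -0.39 to 0.39 for Msr1, -0.64 to 0.41 for Cd36, -0.76 to 0.84 for Marco, -0.75 to 0.39 for Olr1, -0.66 to 0.37 for Mrc1, -0.86 to 1.52 for Cd163 and -0.41 to 1.15 for Cd5l. In simulated data with the design of that genotype test, 2.5% of genes changed by 1 on the log2 scale were called.

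**Figure D4:**
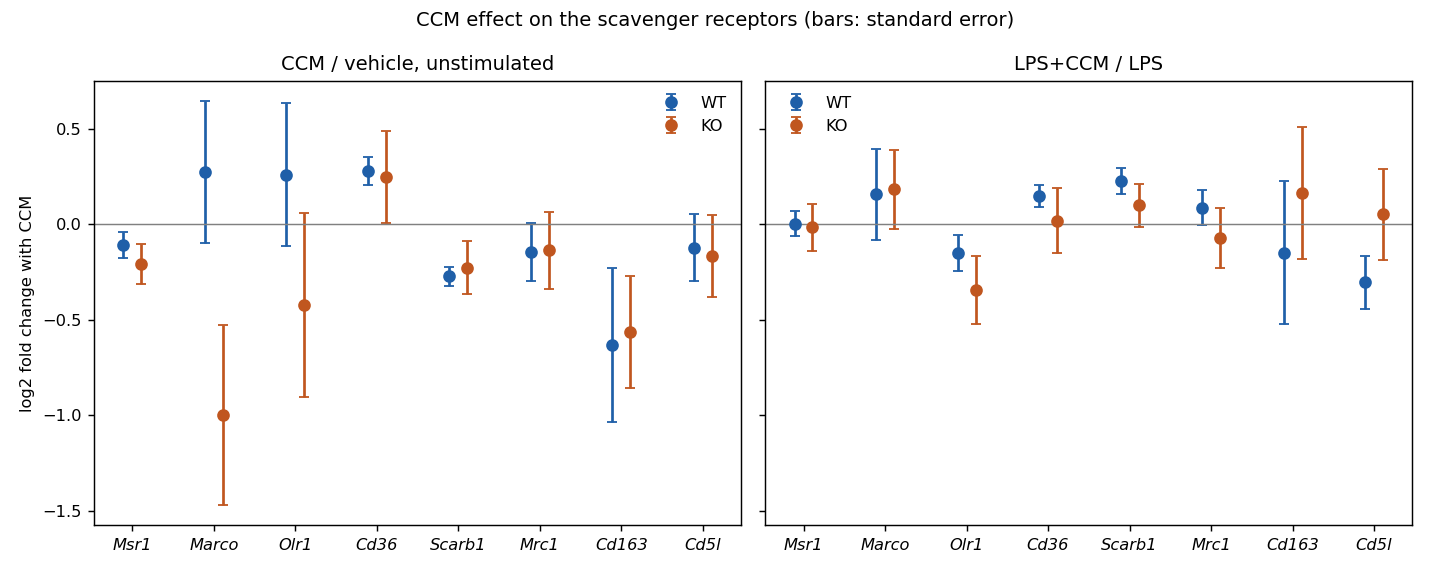
Log2 fold change of each receptor with CCM, without LPS (left) and with LPS (right), in WT (blue) and KO (orange) BMDMs; bars are the standard error. In WT, Scarb1 lies at -0.27 without LPS and at 0.23 with LPS; no point was called by edgeR without the replicate block.

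Whether the CCM effect in WT differed with LPS was tested directly, and Scarb1 was the sole member called, where 2.09% of 14747 genes were called and 0.468% were called higher. Its interaction term was 0.48 on the log2 scale (SE 0.08, 95% interval 0.30 to 0.66, edgeR adjusted p = 0.00931). CCM went with a lower Scarb1 level in 3 of 3 replicate numbers without LPS and a higher level in 3 of 3 with LPS. The call was lost without WT replicate 2 (edgeR adjusted p = 0.271) or 3 (edgeR adjusted p = 0.131) and in the fit to all 36 libraries (edgeR adjusted p = 1), with the value between 0.48 and 0.49 in all 3. The intervals of the other members included 0, at -0.12 to 0.31 for Msr1, -0.36 to 0.07 for Cd36 and -0.21 to 0.64 for Mrc1, and at -1.39 to 1.16 for Marco, -1.07 to 0.25 for Olr1, -0.86 to 1.80 for Cd163 and -0.75 to 0.36 for Cd5l.

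**Figure D5:**
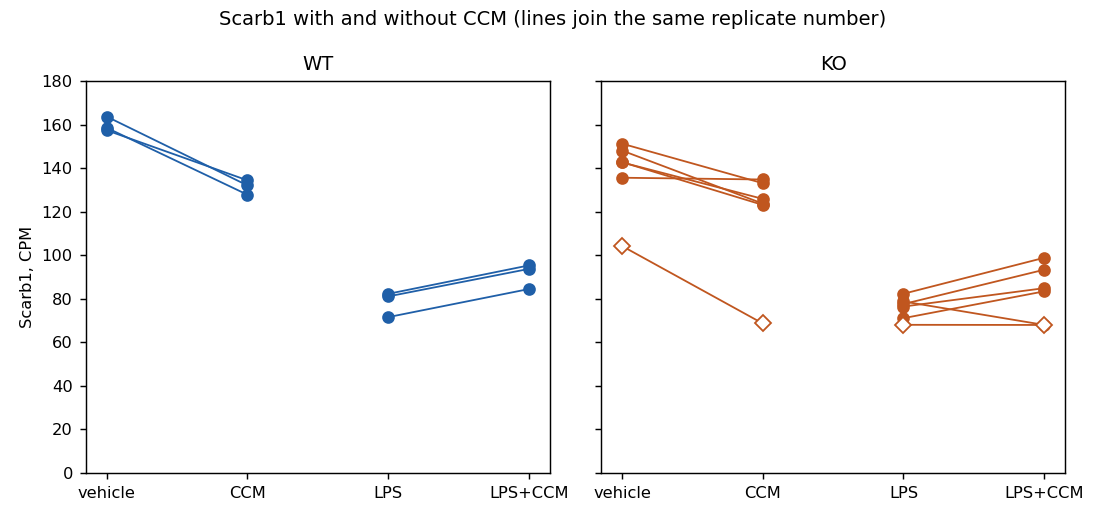
Scarb1 CPM in each library of WT (left, n = 3 per group) and KO (right, n = 6 per group) BMDMs; lines join libraries with the same replicate number and the open diamond is KO replicate 6. The WT lines go down with CCM alone and up when CCM is added to LPS.

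The same lists of related genes were read beside the members. Of 21 other scavenger receptors, 20 were in the table and 17 were tested with LPS in WT, of which 5 rose and 8 fell, with a median log2 fold change of -0.56. Of all genes, 63.0% were called in that comparison. Those that rose included Cd14, the LPS co-receptor (2.86), Scarf1, an endothelial scavenger receptor (2.38), and Cxcl16, a chemokine that also binds oxidized lipoprotein (1.93). Those that fell included Stab2, a hyaluronan-binding stabilin (-3.53), Colec12, a collectin scavenger receptor (-1.40), and Lrp1, an endocytic lipoprotein receptor (-1.26). In KO, 5 rose and 7 fell, where 47.1% of all genes were called.

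Of 17 genes of lipid uptake and storage, 7 rose and 9 fell with LPS in WT, and 4 rose and 7 fell in KO. The shares of all genes called, 63.0% in WT and 47.1% in KO, are to be read beside these counts and those of the regulators. The long-chain acyl-CoA synthetase Acsl1 (log2 4.07 in WT), the caveolin Cav1 (4.81) and the triglyceride-forming enzyme Dgat2 (2.84) rose. The fatty acid binding protein Fabp4 (-2.12), the sterol exporter Abcg1 (-1.63) and the cholesterol-esterifying enzyme Soat1 (-1.41) fell. Of 16 regulators of scavenger receptor genes, 10 rose and 6 fell in WT, and 10 rose and 4 fell in KO. Pparg, the nuclear receptor known to drive Cd36, fell by 4.01 on the log2 scale in WT and by 3.72 in KO, and its partner Rxra fell by 1.27 and by 1.51. In WT, Spic, a factor of red pulp macrophages, rose by 3.70, Stat3, a cytokine-activated factor, by 1.65 and Nr3c1, the glucocorticoid receptor, by 1.36.

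With CCM these lists moved less. In unstimulated WT cells 1 of 17 lipid genes was called, Abcg1 (log2 0.56, SE 0.07, edgeR adjusted p = 0.035), where 0.0570% of all genes were called. None of 17 tested scavenger receptors or 16 regulators was called by edgeR. With LPS and CCM against LPS in WT, 11.9% of all genes were called. Of 17 lipid genes, 5 were higher, among them the cholesterol exporter Abca1 (0.43, SE 0.05, edgeR adjusted p = 3.37e-04), the lysosomal cholesterol esterase Lipa (0.23, SE 0.06, edgeR adjusted p = 0.0439) and Cav1 (0.21, SE 0.06, edgeR adjusted p = 0.0343). Among 16 tested scavenger receptors, only Lrp1 was called higher (0.25, edgeR adjusted p = 0.00736) and only Cd44 lower (-0.19, edgeR adjusted p = 0.0134), a share near that of all genes. Of the regulators, Rxra (0.29) and Stat6 (0.23) were among those higher and Klf4 (-0.65) and Stat3 (-0.31) lower. In KO no gene of the 3 lists was called with CCM, with or without LPS, where 0.112% and 0% of all genes were called. The WT interaction of LPS and CCM was called for Pparg (0.87, SE 0.16, edgeR adjusted p = 0.015) and Stat3 (-0.40, SE 0.08, edgeR adjusted p = 0.0172), where 2.09% of all genes were called.

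The genes most like each member over the 36 libraries were named by Pearson correlation of log2 CPM with 11178 genes, as a description, since the libraries share their treatments. For Msr1 they were Pid1 (r = 0.995), Slc7a2 (0.994) and Epsti1 (0.993), for Marco AW112010 (0.994) and Ccl5 (0.993), and for Olr1 Herc6 (0.992), Plek (0.989) and Slx4ip (0.989). Scarb1 was most like Fbxo21 (0.962), Gnpat (0.962) and Zc3h12d (0.961), Cd36 most like Fam126a (0.958), Recql (0.957) and Nfya (0.956), and Mrc1 most like Dab2 (0.956), Adcy3 (0.955) and Epb41l2 (0.955). Cd163, which was below the level filter for this set, was most like Fancd2 (0.918), Mcm4 (0.903) and Atad2 (0.901), and Cd5l had the lowest values, with Fcrl1 (0.848), Ltf (0.843) and Pld4 (0.834).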

How the data were processed

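RNA of 36 BMDM libraries was sequenced from poly(A) RNA. The authors trimmed reads with fastp, aligned them to mm10 with HISAT2 2.0.5 and counted reads per gene with featureCounts 1.5.0-p3, and the deposited values are raw counts for 54532 genes. Groups follow the labels, and no column went unused. Counts were tested with edgeR 4.0.16 in R 4.3.3 (quasi-likelihood test, TMM normalization, filterByExpr with a minimum count of 10, Benjamini-Hochberg adjustment over all genes tested, called at 0.05), each comparison fitted on its own groups. CPM used TMM factors over all 36 libraries, and TPM the gene lengths in the table. The named genes were the 8 members, of each of 3 related lists at most the 3 called genes with the highest rise and the 3 with the deepest fall, Arntl, and the 3 most alike genes per member (some genes that this rule names are not reported here), and the members and lists were chosen with earlier results of these data known. Alternatives were DESeq2 1.42.0, size factors of its kind, total counts, no filter beyond 1 count, a replicate block, 1 fit to all libraries and leaving out each replicate. Replicate numbers were taken as pairing samples where every pair's deviations correlated above 0.1. That was so with LPS in KO (0.298 to 0.83), CCM in KO (0.337 to 0.844) and LPS with CCM against LPS in WT (0.151 to 0.36). In KO, the group means behind these deviations include KO replicate 6, and its part was not tested. The method was tested on simulated data: of 200 genes changed by 1 on the log2 scale, 65% were called for LPS in WT and 34% for CCM in KO, and 10.3% and 8.11% of the calls were of genes left unchanged. Of the gene identifiers, 54495 were found in GENCODE M21. No 2 libraries agreed within sampling noise.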

Additional observations from a re-analysis of the deposited data

Results flagged for a closer look

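In 4 of the 32 KO groups of 6 libraries (8 members in 4 treatments), KO replicate 6 lay far below the rest. Its gap to the next library there exceeded Dixon's limit. The values were 970.3 CPM for Msr1 with LPS, 754.8 CPM for Cd36 with CCM, and 104.2 CPM and 68.64 CPM for Scarb1 with vehicle and with CCM. Chance gives about 1 in 20 such groups, but these groups share libraries and are not independent. The share of all genes that exceed the limit was not computed, so the 4 are not read as particular to these receptors. Of 15720 genes, KO replicate 6 was the lowest KO library in all 4 treatments for 25.8% and the highest for 20.1%. The 4 groups come from the same replicate number, which also had the highest neutrophil marker level (943 to 969 CPM against 327 to 894 CPM in KO replicates 1 to 5). Within each treatment, T cell and erythroid marker levels were also the highest of the KO libraries in KO replicate 6. Fibroblast marker levels had a lower median in it, with overlapping ranges. The part of these marker levels in the values was not tested.

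In WT BMDMs the CCM effect on Scarb1 differed between unstimulated and LPS-stimulated cells by 0.48 on the log2 scale, by a test of the interaction itself (edgeR adjusted p = 0.00931, 0.0197 to 0.271 with each WT replicate left out). The CCM library of each of the 3 replicate numbers lay below its vehicle library, and the library with both agents above its LPS library.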

How the results depend on the processing

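The members' LPS directions in WT and KO were the same under all alternatives tried. With LPS, Cd36 in WT missed the threshold in the fit to all 36 libraries, and Cd36 in KO missed it without any of KO replicates 1 to 5. Depth limited Olr1, Marco and Cd163, which had few counts before stimulation or after LPS. The causes of the changes below were not tested. The rule for pairing by replicate number was not met for LPS or CCM alone in WT (2 of 3 pairs each) or for CCM added to LPS in KO (4 of 6). The replicate block changed no other member call than those printed in the report and here.

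Counts of called members moved as follows. For CCM in WT they were 2 with DESeq2, without the filter and with the replicate block, for CCM in KO 2 with the block, for CCM added to LPS in WT 2 with total counts, 1 with DESeq2, 4 without the filter and 4 with the block (with 2272, 1558, 2099 and 3220 genes called in all), and for the WT interaction 0 in the fit to all 36 libraries. Counts of all called genes were, with the replicate block, 9774 for LPS in KO, 255 for CCM in WT, 429 for CCM in KO, 3220 and 777 for CCM added to LPS in WT and KO, 1 for KO against WT with LPS and 548 for the WT interaction. In KO against WT the block joins different mice by number alone, and KO libraries without a WT library of that number add nothing to the contrast. With DESeq2 they were 241 and 42 for CCM in WT and KO, 200 for CCM added to LPS in KO, 1 and 2 for KO against WT with vehicle and LPS, and 688 for the WT interaction. Without the filter they were 377 for CCM in WT and 721 for the WT interaction. In the fit to all 36 libraries they were 5644 for LPS in WT, 0 and 14 for CCM in WT and KO, 17 and 285 for CCM added to LPS in WT and KO, and 0 for the WT interaction. With total counts the share of calls that were lower went from 65.2% to 32.3% for CCM added to LPS in WT and from 77.6% to 33.7% for the WT interaction.

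Some small uncalled values changed sign. Msr1 with CCM added to LPS was -0.0044 in WT with RLE size factors and with DESeq2, and 0.0116 in KO with total counts and 0.0013 in the fit to all 36 libraries. With the replicate block, KO against WT was 0.078 for Mrc1 with vehicle and 0.0353 for Mrc1 and 0.0249 for Msr1 with LPS. Olr1 with vehicle was -0.0061 with total counts. The genotype by LPS interaction of Mrc1 was -0.0131 with RLE size factors and with DESeq2, and the genotype by CCM interaction was 0.0044 for Msr1 without the filter and -0.0323 for Marco with total counts.

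Leaving out each replicate in turn gave these ranges of counts and log2 values where a call or direction changed. For LPS in KO, Cd36 ranged from -0.63 to -0.54. For CCM in WT, all called genes ranged from 0 to 16, Mrc1 from -0.28 to 0.019, Cd5l from -0.37 to 0.0073 and Olr1 from -0.14 to 0.47. For CCM in KO, all called genes ranged from 0 to 141. For CCM added to LPS in WT, the called members ranged from 0 to 1, all called genes from 893 to 1352, Msr1 from -0.061 to 0.048, Marco from -0.17 to 0.43, Mrc1 from -0.0201 to 0.16, Scarb1 from 0.17 to 0.27 and Cd163 from -0.63 to 0.13. For CCM added to LPS in KO, all called genes ranged from 0 to 170, Cd36 from -0.014 to 0.056, Msr1 from -0.044 to 0.031 and Cd5l from -0.02 to 0.12. For KO against WT with vehicle, Mrc1 ranged from -0.16 to 0.13, Cd5l from -0.28 to 0.0064 and Olr1 from -0.15 to 0.18. For KO against WT with LPS, all called genes ranged from 0 to 1, Msr1 from -0.074 to 0.059, Marco from -0.29 to 0.13, Mrc1 from -0.13 to 0.041 and Scarb1 from -0.083 to 0.011. For the WT interaction of LPS and CCM, the called members ranged from 0 to 1, all called genes from 0 to 174, Marco from -0.25 to 0.099, Scarb1 from 0.47 to 0.49, Olr1 from -0.81 to 0.18 and Cd163 from -0.074 to 0.72. For the genotype by LPS interaction, Cd36 ranged from -0.014 to 0.11, Mrc1 from -0.067 to 0.064 and Cd163 from -0.51 to 0.073. For the genotype by CCM interaction, Msr1 ranged from -0.039 to 0.0497 and Marco from -0.024 to 0.084.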
